A study of Mus musculus with 8 samples.

Results

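The genes Otx2, Foxd3, Sall2, Sox4, Pim2 and Cldn6 were followed through embryoid body culture with and without induced Oct6. They were taken by symbol as 6 of the 22558 gene rows of the deposited FPKM table (fragment counts divided by transcript length and by library size), and the deposited Oct6 peaks around their start sites were searched. All 6 belonged to the 13661 genes called expressed here, those with 1 FPKM or more somewhere among the 6 libraries. The induced arm was mouse embryonic stem cells with doxycycline-switched Oct6 overexpression at day 2, day 4 and day 6 of embryoid body culture, and the other arm was control cells on the same days, with 1 RNA-seq library each. The Oct6 ChIP and its input came from day 4 of neural differentiation of Oct6-overexpressing cells. The deposited peak list is itself labelled EB (embryoid body) and day 4. The protocol names the lines R1 and R1/E without assigning them to arms, and describes a serum-free method while the titles carry an unexplained prefix fbs. Titles and treatment labels name doxycycline for the induced libraries alone, but the protocol sentence on its use over 6 days can be read as covering both arms. If the controls had no drug or came from the other line, neither effect can be separated from that of Oct6, so these cannot be told apart here. With 1 library per arm and day no value has a replicate, and nothing in the labels says whether the days were separate cultures.

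The epiblast is the embryonic tissue from which all germ layers come. It passes from a naive state, kept by factors such as Klf4 and Esrrb, to a primed state in which lineage programmes can be started, and cultured embryonic stem cells go through a similar passage when they leave self-renewal. Otx2 is a homeobox factor that works with Oct4 at enhancers of the primed state and later patterns the forebrain. Foxd3 is a forkhead factor of the epiblast and the neural crest, Sall2 a zinc finger factor of the Spalt family, and Sox4 a SOXC factor of progenitors and young neurons. Pim2 is a serine/threonine kinase that promotes cell survival, and Cldn6 is a claudin, a membrane protein of tight junctions in early epithelia. Oct6, the product of Pou3f1, binds DNA through a POU domain that recognises the octamer ATGCAAAT.

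Induction was visible in Pou3f1, with 312, 222 and 86.8 FPKM at days 2, 4 and 6 in induced libraries and 64.3, 10.1 and 4.76 in control libraries. Transgene and native transcripts are not separated in this value. Of 6 stem cell markers (Pou5f1, Sox2, Nanog, Dppa4, Utf1, Tdgf1), all were expressed in both arms. Their summed FPKM at days 2, 4 and 6 was 854, 1066 and 354 in induced and 1889, 1322 and 290.4 in control cultures. Pou5f1 and Tdgf1 made up the largest parts of each sum. The median difference of the list, induced minus control in log2(FPKM + 1), was -1.02, 0.04 and 0.34. On that scale 4, 0 and 0 of the 6 were at least 2-fold lower in induced cultures and 0, 1 and 1 higher. Over all genes, 1.83%, 2.11% and 2.1% were lower to that degree and 9.72%, 6.09% and 3.37% higher. Relative depth, read from the steps between low FPKM values, ranged from 0.686 (induced day 6) to 1.49 (control day 4) with control day 2 set to 1. The number of fragments behind each value is not in the table. Since the culture is a mixture, fewer cells of a type and less RNA per cell cannot be told apart in any value below.

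Sequences near the genes are shown first, because they hold both what the ChIP found around the members and what it did not. No Oct6 peak centre lay within 10 kb of the start site of any of the 6 genes, where 17.8% of 13396 expressed genes with a position had one. Out to 50 kb, Sall2 and Sox4 had a peak, against 38.9% of expressed genes, and out to 100 kb Foxd3 and Cldn6 did as well, 4 of 6 against 56.4%. With 6 genes, the counts at 10, 50 and 100 kb are all near those backgrounds, so none is read as a result about the members. The authors' list has 7979 peaks, each 133 bp wide, with the authors' score between 7.6 and 145.6 and a median of 11.4; 3190 of them share the score 10.1. Below are the 3 peaks that lie nearest to Otx2, Sall2 and Sox4, on the plus strand of mm9, with capitals for the 8 bases that match the octamer, read on either strand, at the most positions. They are shown because Sox4 had the single nearest peak for which no other coding gene starts closer, Sall2 had the shortest distance and Otx2 the highest score.
Sox4 peak, chr13:29080853-29080985: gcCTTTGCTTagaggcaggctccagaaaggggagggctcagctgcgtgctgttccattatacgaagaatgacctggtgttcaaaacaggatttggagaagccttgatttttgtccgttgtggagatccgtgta
Sall2 peak, chr14:52924836-52924968: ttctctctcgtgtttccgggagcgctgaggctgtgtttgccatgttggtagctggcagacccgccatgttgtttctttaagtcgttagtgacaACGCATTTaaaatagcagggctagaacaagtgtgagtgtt
Otx2 peak, chr14:49102080-49102212: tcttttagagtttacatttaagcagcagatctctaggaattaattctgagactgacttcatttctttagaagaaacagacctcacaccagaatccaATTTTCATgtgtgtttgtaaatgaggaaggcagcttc

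The best match held 6 of the 8 octamer bases in the Sox4 peak, 5 in the Sall2 peak and 7 in the Otx2 peak. Across 7965 peaks on assembled chromosomes, 98.9% reached 5 matching bases, 79.6% reached 6, 34.3% reached 7 and 4.19% held the full ATGCAAAT on either strand, against 1.27% of 15929 flanking stretches of equal length. None of the 17 peaks within 400 kb of the members held the full octamer. Every score here is the authors' own.

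The Sox4 peak (score 11.4) was intergenic and 35.3 kb upstream of the Sox4 start. The Sall2 peak (score 10.1) was 23.5 kb downstream of the Sall2 start and 5.95 kb past the gene's end. Its centre lay 0.099 kb before the start of Mettl3, an RNA methyltransferase gene. Distances and shares here are from the outermost annotated start of each gene. RefSeq also holds a Sall2 start further inside the gene, which is nearer to this peak. Nearest to Foxd3 was a peak with score 12.7 at 59.4 kb, whose centre lay 0.003 kb from the start of Alg6, a glycosyltransferase gene. The Cldn6 peak at 86.6 kb upstream (score 12.7) fell inside Zfp13. Otx2 had its nearest peak 185 kb downstream (score 15.2), inside 6720456H20Rik, and Pim2 had its only peak within 400 kb at 322 kb upstream (score 10.1), with the start of Foxp3 nearer to it. The median expressed gene had a peak at 80.1 kb. Compared with each member, the share of expressed genes with a nearer peak was 26.1% for Sall2, 32.1% for Sox4, 43.0% for Foxd3, 52.1% for Cldn6, 73.2% for Otx2 and 86.0% for Pim2.

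**Figure D1:**
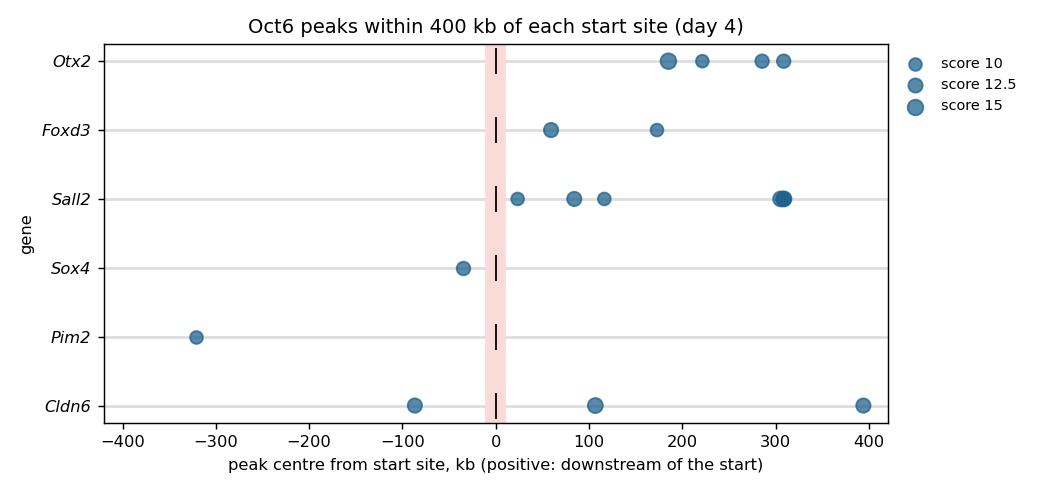
Positions of Oct6 peak centres within 400 kb of each start site at day 4, in kb along the direction of transcription; each dot is a peak, its area grows with the authors' score, the black tick is the start site and the shaded band is 10 kb to each side. No dot falls in the band for any of the 6 genes, and Pim2 has 1 dot, at 322 kb upstream.

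The one promoter with full octamers among the members was that of Pim2. In RefSeq (GRCm38.p6), its 300-base promoter window held 2 copies of ATGCAAAT, counted on both strands, starting 202 and 123 bases before the start. Of 32851 promoter windows in that table, 1.74% held at least 1 copy and 0.107% (35) held at least 2. The windows of the other 5 genes held none. The 250 bases before the Pim2 start are shown with the octamers in capitals, on the plus strand.
Pim2 promoter, GRCm38.p6 chrX:7878056-7878305: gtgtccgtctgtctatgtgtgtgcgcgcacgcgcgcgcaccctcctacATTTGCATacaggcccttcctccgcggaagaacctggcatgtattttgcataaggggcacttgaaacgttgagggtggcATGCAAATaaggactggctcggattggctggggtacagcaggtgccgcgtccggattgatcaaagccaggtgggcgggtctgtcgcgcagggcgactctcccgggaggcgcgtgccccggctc

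These are letters in a window and not shown binding. The deposited list had no peak near this promoter.

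The 4 genes Otx2, Foxd3, Sall2 and Pim2, were lower in the induced library on all 3 days, as were 13.1% of expressed genes. Differences below are induced minus control in log2(FPKM + 1), a scale that understates folds of weakly expressed genes, and a gene counted as called at 2-fold or more with an FPKM of at least 1 in either library. At day 2, 3 of 6 were called lower (Otx2, Foxd3, Sall2), against 1.83% of genes, and 0 higher, against 9.72%. At day 4, 2 were called lower (Otx2, Foxd3) against 2.11%, and 0 higher against 6.09%; Cldn6 lay just short, and 3 were called under each of the 3 other scales or scalings tried. At day 6 none was called in either direction, against 2.1% lower and 3.37% higher. The median difference of the 6 was -0.91, -0.77 and -0.51 at days 2, 4 and 6, beside 0.17, 0.10 and 0.06 over all genes tested. Otx2 and Foxd3 were called lower at both day 2 and day 4, as were 40 genes or 0.293% of those expressed. The 6 genes were chosen with earlier results of these data known. An excess over the shares of all genes therefore describes them and is not a test.

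**Figure D2:**
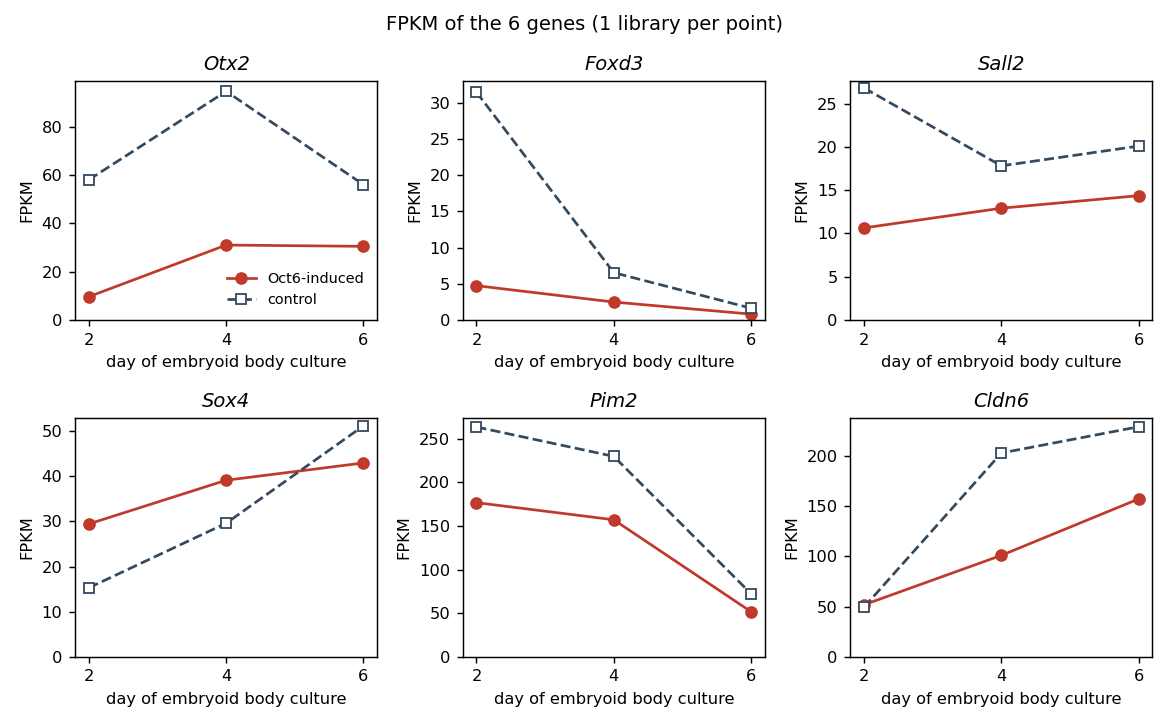
FPKM of each gene (vertical axis, linear from 0) against day of embryoid body culture, with filled circles for Oct6-induced and open squares for control, 1 library per point. The induced points lie below the control points on every day for Otx2, Foxd3, Sall2 and Pim2, and the lines of Sox4 cross between day 4 and day 6.

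Otx2 (ENSMUSG00000021848.9, mm9 chr14:49277354-49287319, minus strand) measured 9.67, 31.0 and 30.5 FPKM at days 2, 4 and 6 in induced libraries and 58.0, 94.6 and 56.0 FPKM in control libraries. Every induced library was below every control library, which was so for 2 of the 6 genes (Otx2 and Sall2) and for 2.38% of expressed genes. The induced level was 0.167, 0.328 and 0.545 of control. In log2 terms Otx2 differed by -2.47, -1.58 and -0.86, and at day 2 only 5 of 13661 expressed genes had a lower difference. Both arms were higher at day 4 than at day 2, by 1.59 in induced and 0.70 in control cultures. The interval from day 4 to day 6 brought -0.02 in induced and -0.75 in control cultures, and the gap between the arms was smallest at day 6.

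Foxd3 (ENSMUSG00000067261.3, mm9 chr4:99322990-99325362, plus strand) measured 4.75, 2.49 and 0.824 FPKM in induced libraries on the 3 days, against 31.4, 6.54 and 1.64 FPKM in control. It was lower on each day, but the arms overlapped, because control day 6 lay below induced day 2 and day 4. Induced cultures held 0.151, 0.380 and 0.503 of the control level. The difference of Foxd3 over the 3 days was -2.50, -1.11 and -0.53, and 4 expressed genes had a lower day 2 difference. From its highest to its lowest library Foxd3 covered 38.2-fold, the widest range among the 6 genes. Foxd3 is also used in neural crest. Summed FPKM of 6 crest markers was 5.10, 7.86 and 27.3 in induced and 2.25, 5.09 and 22.6 in control cultures. Of them 0, 1 and 3 were at least 2-fold higher, against 9.72%, 6.09% and 3.37% of all genes. None was lower to that degree, against 1.83%, 2.11% and 2.1%. At day 6 Pax3 reached 6.32 FPKM in the induced library beside 0.854 in control. Snai2 and Ets1 went the other way at day 6, with 4.26 and 9.49 FPKM in induced and 7.32 and 13.1 in control. Sox10, a defining crest factor, stayed below 1 FPKM in all 6 libraries. The part of crest cells in the Foxd3 values was not tested.

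Sall2 (ENSMUSG00000049532.6, mm9 chr14:52930847-52948437, minus strand) measured 10.6, 12.9 and 14.4 FPKM in induced libraries, against 26.8, 17.8 and 20.1 FPKM in control. All induced values lay below all control values, with the widest gap at day 2. Its log2 difference passed 2-fold at day 2 with -1.26, and was -0.43 and -0.46 on the later days. Sall2 varied least among the 6 genes, 2.52-fold from its highest to its lowest library. Neural progenitors also express Sall2 and Otx2. Summed FPKM of 6 neural progenitor markers was 36.5, 45.7 and 89.5 in induced and 5.08, 16.5 and 18.5 in control cultures. Sox21 alone made up 22.6 of the induced sum at day 2, and Fabp7 58.2 of that at day 6. The median log2 difference of the list was 0.82, 2.08 and 0.66, and Nes was lower at day 4, by -0.53. The part of neural progenitors in the Sall2 and Otx2 values was not tested.

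Sox4 (ENSMUSG00000076431.3, mm9 chr13:29040788-29045582, minus strand) went the other way at first, with 29.4, 39.1 and 43.0 FPKM in induced libraries, against 15.3, 29.6 and 51.2 FPKM in control. It was higher in induced cultures at days 2 and 4 and lower at day 6, with log2 differences of 0.90, 0.39 and -0.25, none past 2-fold. Control Sox4 was higher on each later day, by 0.91 and 0.77, and induced Sox4 by 0.40 and 0.13. Neurons also express Sox4. Their 8 markers had summed FPKM of 164, 133 and 147 in induced and 83.2, 67.9 and 34.3 in control cultures. Stmn2 and Tubb3 made up the largest parts of each sum. At least 2-fold higher were 4, 5 and 8 of the 8, against 9.72%, 6.09% and 3.37% of all genes. Nhlh1 was listed at 0 in 2 control libraries. The part of neurons in the Sox4 values was not tested.

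Pim2 (ENSMUSG00000031155.8, mm9 chrX:7455388-7460558, plus strand) was among the more abundant members, with 177, 157 and 51.6 FPKM in induced libraries, against 263, 230 and 72.2 FPKM in control. Its differences were small and alike on the 3 days, at -0.57, -0.55 and -0.48, and none was past 2-fold. The decline between day 4 and day 6 was larger than the gap between arms: -1.59 in induced and -1.65 in control cultures.

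Cldn6 (ENSMUSG00000023906.2, mm9 chr17:23816332-23819413, plus strand) measured 51.8, 101 and 157 FPKM in induced libraries, against 49.4, 203 and 229 FPKM in control. The arms were close at day 2 and then apart, with log2 differences of 0.07, -0.999 and -0.54, the middle one a level of 0.498 of control and just short of the threshold on this scale. The day 2 sign is not stable, since it became -0.16 under median ratio scaling. Cldn6 is also a gene of epithelium and of visceral endoderm. Summed FPKM of 5 epithelial markers was 182, 219 and 517 in induced and 234, 625 and 779.5 in control cultures. At least 2-fold lower were 0, 4 and 1 of the 5, and 1, 0 and 0 were higher (Krt19 at day 2). Summed FPKM of 10 visceral endoderm markers was 10.4, 27.6 and 53.6 against 42.3, 178 and 232, with 3, 8 and 7 of them at least 2-fold lower. Over all genes, 1.83%, 2.11% and 2.1% were lower to that degree and 9.72%, 6.09% and 3.37% higher. Otx2 too is used in visceral endoderm, and the part of either tissue in the values of Cldn6 and Otx2 was not tested.

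**Figure D3:**
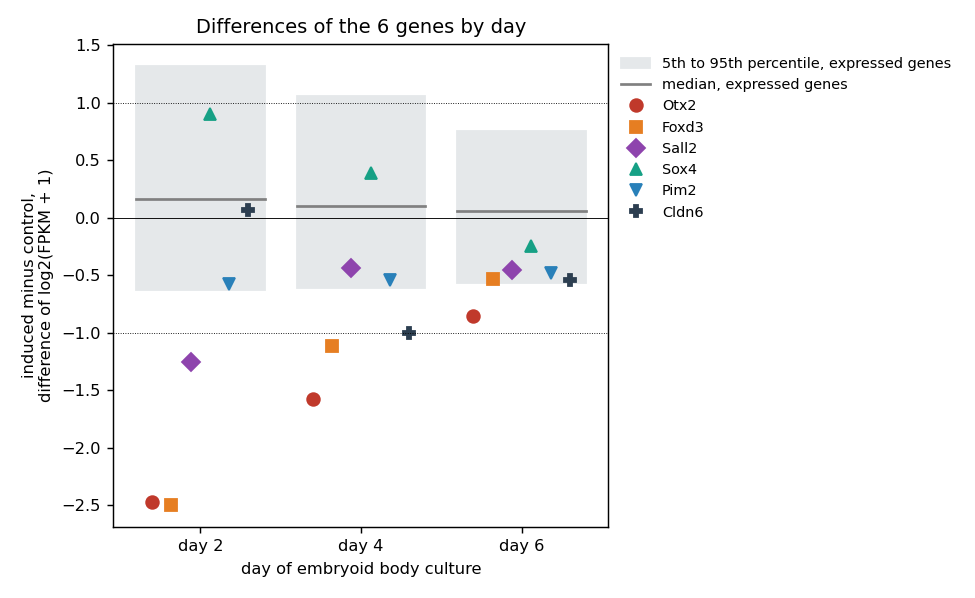
Difference of log2(FPKM + 1), induced minus control, for each gene on each day; the grey bar spans the 5th to 95th percentile of 13661 expressed genes, the grey line is their median and dotted lines mark 2-fold. Otx2 lies below the bar on all 3 days, Foxd3 and Sall2 at day 2, Foxd3 and Cldn6 at day 4, and Sox4 lies inside it throughout.

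A difference common to the 3 days was tested with limma, day as a block, over all expressed genes. None of the 6 passed a Benjamini-Hochberg adjusted p of 0.05, and few genes did at all: 0.00732% lower (1 gene) and 0.0146% higher (2 genes). The mean difference over the 3 days and limma's adjusted p were -1.63 ± 0.81 (SD over the 3 days) and 0.128 for Otx2, -1.38 ± 1.01 and 0.170 for Foxd3, and -0.72 ± 0.47 and 0.169 for Sall2. Pim2, with -0.53 ± 0.05, had the smallest adjusted p of the 6 in limma's test, 0.0963. Cldn6 (-0.49 ± 0.53) and Sox4 (0.35 ± 0.58) had adjusted p of 0.259 and 0.415 by limma. At an unadjusted p under 0.05, 4 of the 6 were lower (Otx2, Foxd3, Sall2, Pim2), where 4.72% of genes were lower and 16.3% higher. Because the 6 were chosen with earlier results of these data known, that count is not independent evidence. This fit reads the spread between days, so a gene with a large difference that varies by day, such as Otx2, is held to a wider error than Pim2.

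Whether the gap between arms moved with day was tested in a second limma fit with an arm by day term. Its slope per 2 days was 0.81 log2 units for Otx2, 0.98 for Foxd3 and -0.57 for Sox4, and in each the 3 daily differences were in one order. Adjusted p-values of limma were 0.149, 0.200 and 0.198, and none of the 6 genes or of all genes (0%) passed. Unadjusted, 3 of the 6 were under 0.05, beside 13.1% of all genes. With 1 residual degree of freedom this fit carries little information on each gene.

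Within an arm the 6 genes did not share a time course. From day 2 to day 4 in induced cultures 1 gene was called higher (Otx2; 2.73% of all genes) and 0 lower (2.36%), while in control 1 was called higher (Cldn6; 9.63%) and 1 lower (Foxd3; 4.65%). From day 4 to day 6 in induced cultures 1 was called lower (Pim2; 2.1%) and 0 higher (2.98%), while in control Foxd3 and Pim2 were called lower (2.97%) and 0 higher (6.15%). These comparisons share libraries with those between arms. In control cultures Foxd3, Sall2 and Pim2 were highest at day 2, Otx2 at day 4, and Sox4 and Cldn6 at day 6. By level, which FPKM gives per length, Pim2 led at day 2 and day 4 in both arms, and Cldn6 led at day 6 in both.

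Genes with the most similar profile were found as the smallest root mean square difference of log2(FPKM + 1) over the 6 libraries, each gene centred on its own mean. For Otx2 these were Esrp1, an epithelial splicing regulator (0.41), Npl (0.44) and Vrtn (0.44), and for Foxd3 they were Cbr3 (0.31), Ccno (0.36) and Utf1, a chromatin protein of pluripotent cells (0.40). Sall2 was nearest to Adam19 (0.14), BC066135 (0.16) and Prr5l (0.16), of which BC066135 was weakly expressed. Sox4 was nearest to Mfhas1 (0.07), the TEAD factor Tead3 (0.07) and Socs5 (0.07), and Pim2 to Slc27a2 (0.13), Nlrp1a (0.19) and Cmah (0.19). Cldn6 was nearest to Plekhg3 (0.09), the glucose transporter Slc2a3 (0.12) and another claudin, Cldn7 (0.15). The median value over all expressed genes was 1.07 for Otx2, 1.46 for Foxd3, 0.55 for Sall2, 0.53 for Sox4, 0.96 for Pim2 and 0.88 for Cldn6. Among the 6 themselves the smallest values were 0.61 for Cldn6 with Sox4, 0.73 for Otx2 with Sall2 and 0.77 for Foxd3 with Pim2. This measure is smaller for genes that vary little, so the share of nearer genes depends on which gene of a pair it is taken from. Of expressed genes, 7.88% were nearer to Cldn6 than Sox4 was. For Otx2, 0.878% were nearer than Sall2, and for Foxd3, 0.681% were nearer than Pim2. Seen from Sox4 and Sall2, the values of 0.61 and 0.73 were above their medians over all expressed genes, 0.53 and 0.55. The value of 0.77 was below the Pim2 median of 0.96.

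Of 16 relatives of the members by sequence family, 14 were expressed and tested, and none passed limma's adjusted threshold. At an unadjusted p under 0.05 limma had Sall3 and Sox11 higher and Sall1, Sall4 and Cldn4 lower. Over all genes, 16.3% were higher and 4.72% lower at that cut. Otx1, the other Otx gene of the forebrain, had 0.116, 0.711 and 0.569 FPKM at days 2, 4 and 6 in induced libraries and 0.125, 0.813 and 2.26 in control, and Crx, of photoreceptors, stayed below 1 in each. Foxd1, Foxd2 and Foxd4 were all under 1 FPKM at days 2 and 4. At day 6 they had 0.245, 0.0908 and 0.210 in induced cells, against 2.02, 0.728 and 1.88 in control. Foxd3 was therefore the only one of these Foxd genes above 1 FPKM at day 2 or day 4.

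In the Sall family the pattern of Sall2 was not shared by every relative. Sall4, a factor of pluripotent cells, differed by -0.26, -0.75 and -0.15 and Sall1 by -0.16, -0.27 and -0.94, while Sall3 was higher in induced cells on each day, by 0.83, 0.69 and 0.66. The SOXC gene Sox11 was higher on each day by 0.62, 0.74 and 0.22, including day 6, when Sox4 was lower. Sox12 differed by -0.00, 0.39 and 0.02, the last of which became -0.06 under median ratio scaling. The kinase genes Pim1 (0.51, -0.00, -0.07) and Pim3 (-0.01, -0.51, -0.15) had no such even difference over days as Pim2.

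At day 4 Cldn6 was lower along with other claudins. Cldn3, Cldn4 and Cldn7 had 5.67, 21.2 and 28.0 FPKM in induced cells at that day, against 15.5, 55.0 and 65.7 in control, differences of -1.30, -1.33 and -1.20. At day 2 Cldn3 and Cldn7 were instead higher in induced cells, by 1.01 and 0.33, and Cldn4 was lower by -0.91. Cldn9, which lies beside Cldn6 in the opposite orientation, did not exceed 1.18 FPKM. The counting of reads shared by close copies or overlapping genes is not stated in the labels.

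**Figure D4:**
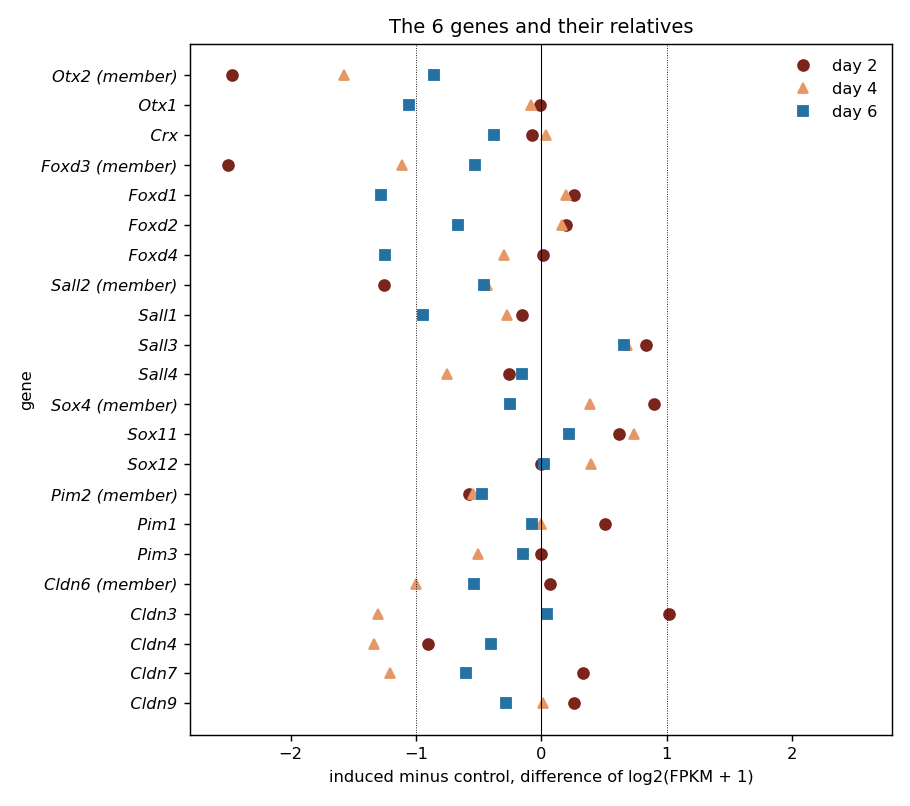
Difference of log2(FPKM + 1), induced minus control, at days 2, 4 and 6 for the 6 genes and 16 relatives, grouped by family; dotted lines mark 2-fold. At day 2 Otx2 lies at -2.47 and Otx1 at -0.01, and at day 4 Cldn6, Cldn3, Cldn4 and Cldn7 lie between -0.999 and -1.33.

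A list of 25 other genes of the primed or formative epiblast, 5 of them also in the stem cell or epithelial lists, gave a wider setting. It too was chosen with earlier results of these data known, so its counts beside all genes are descriptive. At day 2, 9 of 25 were at least 2-fold lower and 1, the neural cadherin Cdh2, 2-fold higher, where 1.83% of all genes were lower and 9.72% higher. On the fourth day 2 were lower (2.11% of all genes), on the sixth 1 was lower (2.1%), and 0 were higher on either (6.09% and 3.37%). List medians were -0.70, -0.29 and 0.13, beside 0.17, 0.10 and 0.06 over all genes tested. None of the 25 passed limma's adjusted p, and at an unadjusted p under 0.05, 6 were lower and 0 higher, where 4.72% of all genes were lower and 16.3% higher. The 6 with the largest differences in size, averaged over days, were lower in that average: the DNA methyltransferase Dnmt3b (-1.90, -1.46, -0.64), the growth factor Fgf5 (-0.73, -1.41, -0.57), the Wnt effector Lef1 (-1.90, -0.42, 0.13), the epithelial factor Grhl2 (-1.36, -0.31, -0.50), the RNA-binding protein Lin28a (-0.68, -0.60, -0.73) and Utf1 (-1.67, -0.39, 0.12). Dnmt3b followed an order of days like that of Otx2 and Foxd3, with 92.7, 89.4 and 56.8 FPKM in induced and 348, 248 and 88.9 in control libraries. Lin28a was instead even over days, as Pim2 was, with 95.4, 112 and 106 against 153, 170.2 and 176 FPKM.

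Several epiblast genes that were lower at day 2 were higher at day 6. The growth factor gene Fgf15 measured 5.81 FPKM in the induced library of day 2 beside 33.4 in control, and at day 6 it measured 23.7 in induced beside 15.1 in control. For Tdgf1, the Nodal co-receptor, these were 140.1 in induced and 412 in control, then 102 in induced and 72.5 in control. Fgf15 and Tdgf1 were named after their values were seen. Among the 6 members, Sox4 and Cldn6 had unlike signs at day 2 and day 6, in the opposite order, with that of Cldn6 at day 2 close to 0.

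**Figure D5:**
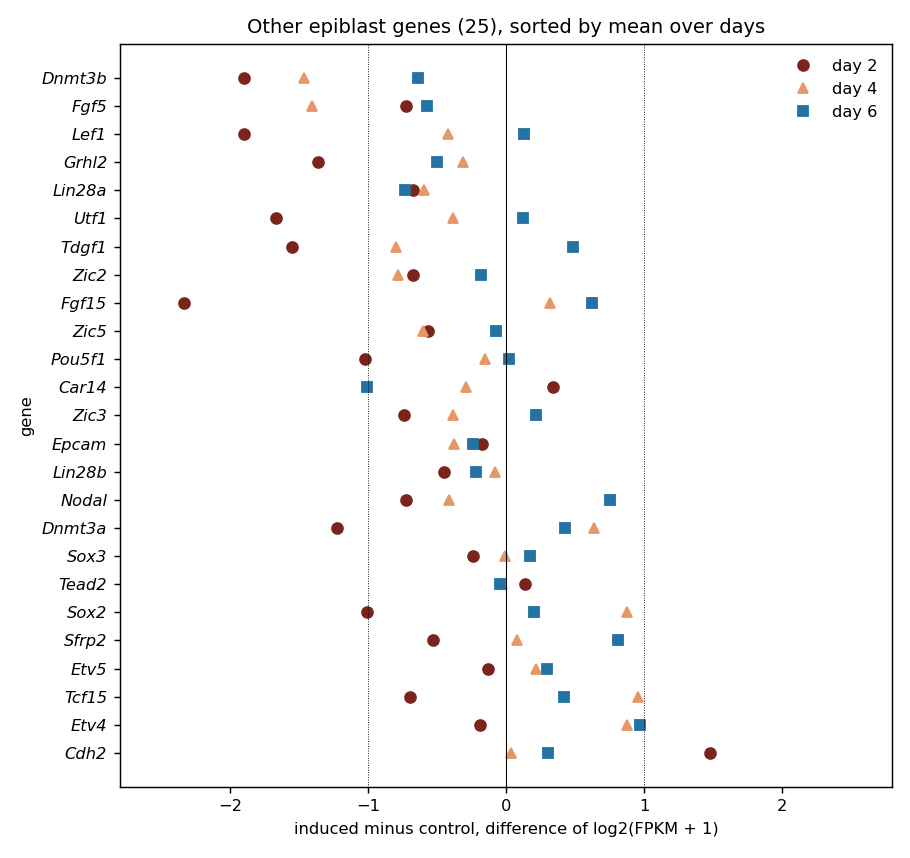
Difference of log2(FPKM + 1), induced minus control, at days 2, 4 and 6 for 25 other epiblast genes, sorted by their mean with the lowest at the top; dotted lines mark 2-fold. Most circles (day 2) lie left of 0, with 9 past 2-fold, and the squares (day 6) gather around 0, with a list median of 0.13.

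The other marker lists give the setting of these values. Over all genes, 9.72%, 6.09% and 3.37% were at least 2-fold higher at days 2, 4 and 6, and 1.83%, 2.11% and 2.1% lower. The lists are small, so counts near those shares, such as 1 of 10 naive genes at day 2, are not read as results. Summed FPKM of 10 naive genes was 236, 184 and 102 in induced and 219, 58.9 and 44.8 in control cultures at days 2, 4 and 6, with 1, 7 and 3 of them at least 2-fold higher and 0 lower. The 6 neural progenitor markers summed to 36.5, 45.7 and 89.5 against 5.08, 16.5 and 18.5, with 2, 5 and 2 at least 2-fold higher and 0 lower. Sox21 was the largest part of the induced sum at day 2, and Fabp7 at days 4 and 6. The 6 early mesoderm markers summed to 11.02, 237 and 95.9 against 8.01, 370.0 and 107, with 0, 3 and 2 at least 2-fold lower and 0 higher. The 4 germ cell markers summed to 33.9, 17.5 and 9.05 against 34.3, 12.8 and 8.72, with 0, 0 and 1 at least 2-fold higher and 0 lower. No gene of these lists passed limma's adjusted threshold.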

How the data were processed

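The tools named in the submitters' processing notes are TopHat 1.4.1 and Cufflinks 1.3.0, with Cuffdiff, HOMER and the build mm9. The authors deposited FPKM values per gene and library, and a peak list with a score per peak whose scale is not given. From these, log2(FPKM + 1) was computed. limma 3.58.1 in R 4.3.3 (lmFit, eBayes with trend, day as factor, 2 residual degrees of freedom, Benjamini-Hochberg adjustment) was run over genes reaching 1 FPKM in any library, and tested on simulated data: of 100 genes planted at 1 log2 unit 29 were recovered, and of 100 planted at 2 units 65, among 13661. In the simulation 2 unplanted genes were called, and each planted difference was the same on all 3 days. Recovery of differences that vary by day was therefore not simulated. The p-values of limma measure the spread between days. Peaks ended within the NCBIM37 (mm9) chromosomes, and GENCODE gave start sites for 98.1% of expressed genes. Flanks were equal stretches set 500 bp to each side. Sequence counts leave out 14 peaks on unplaced contigs. By rule, named genes were the 6 members, listed relatives, the 6 largest differences of the epiblast list, the 3 most similar profiles, genes nearest to a named peak and Pou3f1. Fgf15, Tdgf1, Cdh2, Nhlh1, Stmn2, Tubb3, Sox21, Fabp7, Nes, Sox10, Pax3, Snai2, Ets1 and Krt19 were named after their values were seen. Members and lists were chosen with earlier results of these data known. Python 3.11.15, numpy 2.4.6, pandas 2.3.3 and matplotlib 3.10.9 were used.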

Additional observations from a re-analysis of the deposited data

Results flagged for a closer look

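Sox4 and Cldn6 had differences of opposite sign between the arms on different days. Sox4 was higher in induced cultures at day 2, by 0.90 in log2(FPKM + 1), and lower at day 6, by -0.25. The arm by day term of limma gave an adjusted p of 0.198 for it. Cldn6 had a difference of 0.065 at day 2 and -0.999 at day 4, and limma's adjusted p for the day term was 0.606. Its day 2 value is near 0 and became -0.16 under median ratio scaling, so for Cldn6 the opposite sign is not stable. Each value rests on 1 library per arm.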

How the results depend on the processing

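The number of members called lower was 3 at day 2 and 0 at day 6 under a pseudocount of 0.1, median ratio scaling and quantile normalisation, as in the main values. At day 4 it was 3 under each of these in place of 2, as Cldn6 (-1.01, -1.14 and -1.001) then passed. Median ratio scaling moved the median difference of expressed genes at day 2 to -0.01, from 0.16 as deposited. No member passed limma's adjusted p under any of the 8 alternatives (pseudocount, filter, 2 scalings, no day block, each day left out), and mean differences kept their direction in all of them, though not their size. Leaving out day 2 gave 0.07 for Sox4 in place of 0.35, -0.82 for Foxd3 in place of -1.38, -0.45 for Sall2 in place of -0.72 and -0.77 for Cldn6 in place of -0.49. Cldn6 was -0.24 without day 4, and Sox4 was 0.65 without day 6. Adjusted p for Pim2 ran from 0.0923 to 0.855 and for Otx2 from 0.124 to 0.624 across these. All genes past limma's threshold, 3 as reported, were 1 with a pseudocount of 0.1, 0 without a filter, 7 after quantile normalisation, and 0 without day 2, without day 4 or without day 6. Members with a peak were 0 within 5 kb, with peaks at or above the median score, and from any transcript start, and 2 within 50 kb. Arms were paired by day in the fit as reported; without the day block the adjusted p was 0.855 for Pim2 and 0.376 for Otx2. The labels carry no replicate numbers, so no other pairing was tried. How far depth limits each value cannot be given without fragment numbers.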
